A study of Mus musculus with 12 samples.

Results

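Transcripts of 8 genes that mark T cell memory, homing and tissue residency were followed in bone marrow RNA of myeloma-bearing mice: Klrg1, Cx3cr1, Ccr7, Cd44, Cd69, Cxcr6, S1pr1 and Itga4. They were chosen by symbol, with earlier results of these data known. All 8 are among the 23134 genes of the deposited table of normalised read counts. Every sample is total marrow of wild-type C57BL/6 mice injected with Vk12653, a transplantable myeloma line derived from the Vk*MYC mouse, and no T cells were sorted. The untreated group holds 3 samples taken 10 days after the injection, which is treatment day 0. The treated groups hold 3 samples each from day 4, day 11 and day 18 of anti-CD137, an agonist antibody to a costimulatory receptor of activated T cells (clone 3H3, 10 µg by the intraperitoneal route, 2 doses a week). These days fall 14, 21 and 28 days after the myeloma injection, so exposure to antibody and time since injection rise together and cannot be told apart. The labels do not say how many mice stand behind a sample, and p-values measure only the spread between these samples.

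As background, T cells change their surface receptors as they move from a naive to an effector, memory or resident state. Naive and central memory T cells use CCR7, a receptor for the chemokines CCL19 and CCL21, to enter lymphoid tissue, and S1PR1, a receptor for the lipid sphingosine 1-phosphate, to leave it. KLRG1, an inhibitory lectin-like receptor that binds cadherins, and CX3CR1, the receptor for CX3CL1, mark effector cells, while CD69, which binds S1PR1 and removes it from the surface, and CXCR6, the receptor for CXCL16, mark cells held in tissue. CD44, a hyaluronan receptor, and ITGA4, the alpha-4 integrin chain that binds VCAM1 and fibronectin, are adhesion molecules raised on activated and memory T cells. Most of these genes are also used by other marrow cells: CX3CR1 by monocytes, KLRG1 by natural killer cells, CCR7 and S1PR1 by B cells, and CD44 and ITGA4 by most leukocytes. In bulk RNA, fewer cells of a type and less RNA per cell cannot be told apart.

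Cx3cr1 and Cxcr6 both lie on chromosome 9 and were called in opposite directions at day 18, though not at day 4 or day 11. Their promoters are shown for that reason. RefSeq (GRCm38.p6) gave promoter sequences, 250 bases before to 50 after a RefSeq start site, for 4 of the 8 members, the other 2 of them being Cd44 and Itga4. The Cx3cr1 window is chr9:120068247-120068546 on the minus strand and the Cxcr6 window is chr9:123806227-123806526 on the plus strand. The Cx3cr1 window lies inside the gene bounds given further on, so its start site is not the outermost annotated one. Capitals mark matches, on either strand, to the Runx motif TGTGGT or to an NF-kB motif of 3 G, any 5 bases and 2 C.
Cx3cr1: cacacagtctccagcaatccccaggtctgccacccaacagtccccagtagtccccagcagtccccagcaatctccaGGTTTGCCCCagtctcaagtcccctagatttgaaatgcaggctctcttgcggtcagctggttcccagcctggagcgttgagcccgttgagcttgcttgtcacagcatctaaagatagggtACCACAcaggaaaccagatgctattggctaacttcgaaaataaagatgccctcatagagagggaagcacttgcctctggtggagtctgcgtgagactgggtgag
Cxcr6: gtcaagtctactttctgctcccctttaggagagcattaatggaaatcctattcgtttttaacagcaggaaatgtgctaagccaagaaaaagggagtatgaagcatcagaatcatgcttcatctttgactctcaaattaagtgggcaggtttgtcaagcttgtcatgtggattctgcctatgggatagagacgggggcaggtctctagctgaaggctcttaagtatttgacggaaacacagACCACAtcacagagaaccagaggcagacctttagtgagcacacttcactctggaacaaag
Both windows hold 1 Runx match, which 16.8% of the 32851 promoters in the table hold too. The Cx3cr1 window also holds 1 NF-kB match, as 50.8% of promoters do. The T-box motif TCACACC (3.98% of promoters), the KLF motif CCNCACCC (16.6%) and the AP-1 motif TGANTCA (7.81%) have no match in either window.

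Of the 8 genes, 6 differed among the 4 time points, and their courses were not alike. Klrg1 and Cxcr6 rose, Cd69 rose at day 4 and was lower again at the later days, and Ccr7, S1pr1 and Cx3cr1 fell. Cd44 and Itga4, the most abundant members, did not pass any test over time (adjusted p = 0.879 and 0.842). The test was limma's F-test on log2 of the normalised count plus 1, adjusted over all 14883 genes tested, which called 9.47% of them. All 8 members passed the filter on low counts (3 or more samples with 10 normalised counts or more).

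**Figure D1:**
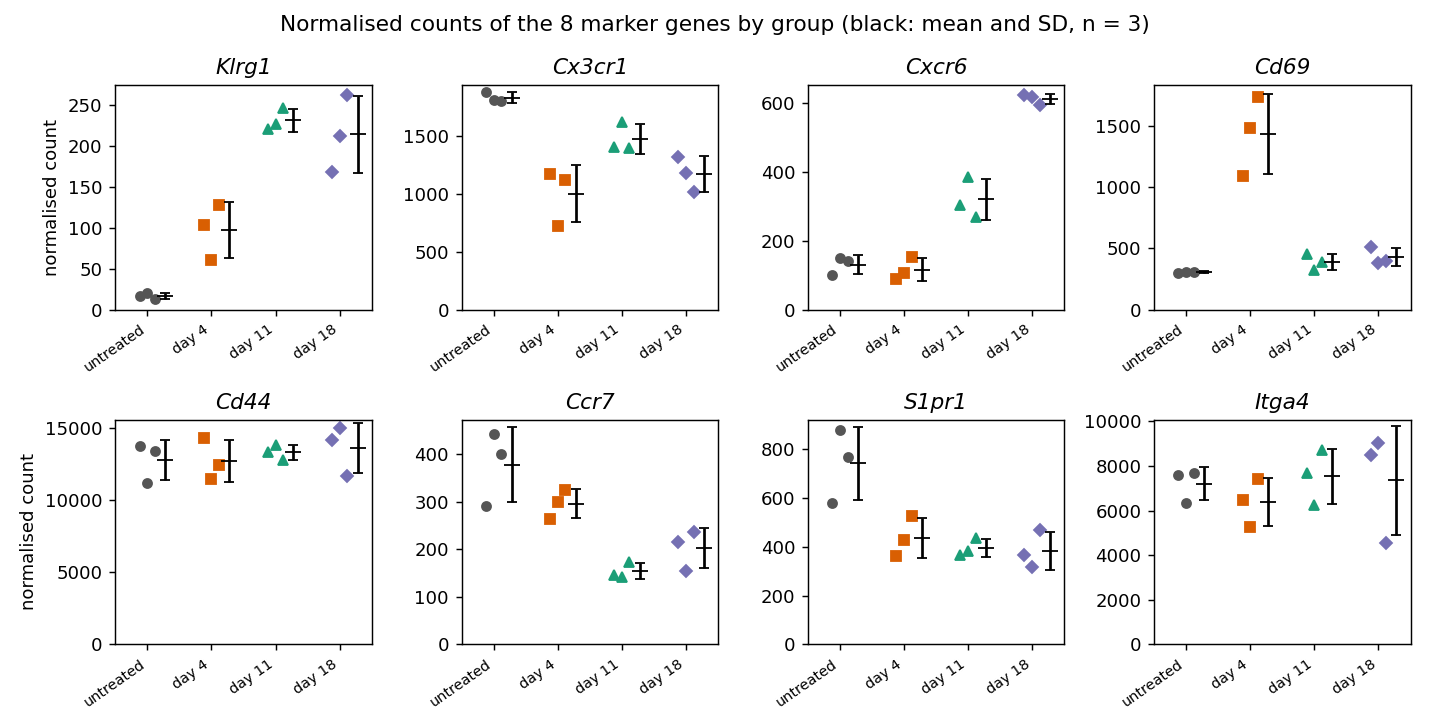
Normalised counts of each gene in the 12 samples, in 4 groups of 3, with the mean and SD in black. Each vertical axis starts at 0. Klrg1 sits between 13 and 20 in untreated marrow and at 60 or above in every treated sample, whereas the groups of Cd44 overlap.

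The 3 comparisons with untreated marrow share its samples. Against it, 2 members rose and 2 fell at day 4, where 4.64% of all genes tested were called (2.4% higher and 2.24% lower). At day 11, again 2 rose and 2 fell, against 5.32% of all genes (3.2% higher and 2.12% lower). At day 18, 2 rose and 3 fell, against 9.2% (5.29% higher and 3.91% lower). The median log2 change of the 8 members was -0.19, 0.06 and 0.03 at the 3 days, beside 0.01, 0.00 and 0.00 over all genes. Members whose treated and untreated samples did not overlap numbered 4, 6 and 6 of 8, where 25.5%, 26.4% and 26.3% of all genes did not overlap.

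**Figure D2:**
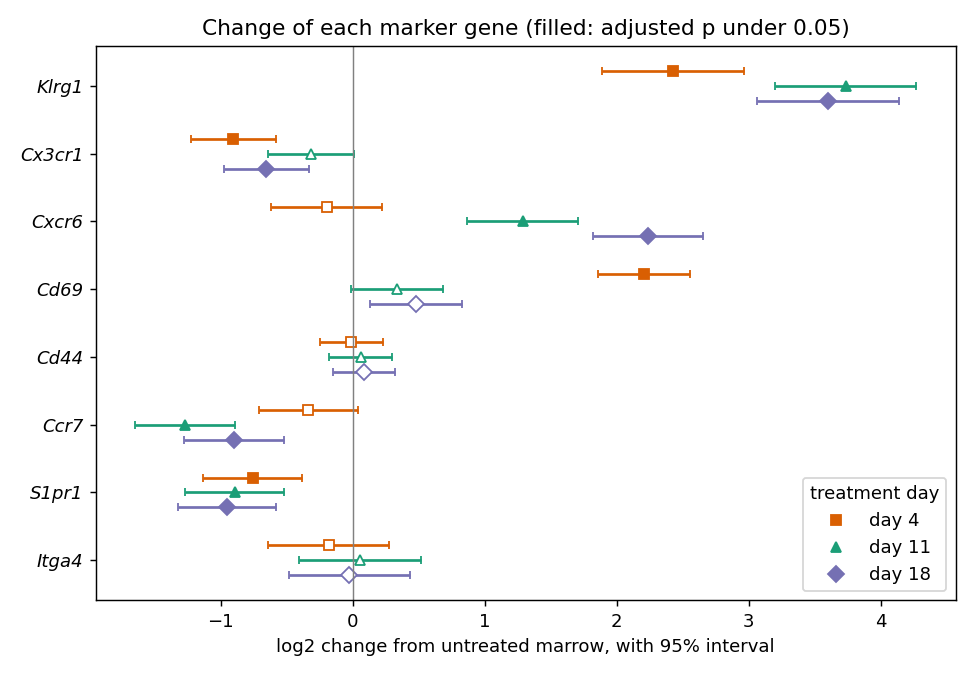
Log2 change of each gene from untreated marrow at the 3 treatment days, with 95% intervals from the limma fit. Filled points have an adjusted p under 0.05 over all genes tested. Klrg1 is far to the right on all 3 days, Cxcr6 only from day 11 and Cd69 only at day 4.

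Klrg1, the effector receptor, was the member with the largest change. The 3 untreated samples had normalised counts of 17, 20 and 13, and the day 4 samples 103, 60 and 128. Day 11 gave 220, 227 and 246, and day 18 gave 168, 212 and 262. Each treated sample stood above each untreated one, and each day 11 and day 18 sample stood above each day 4 sample. On the log2(count + 1) scale the change was 2.42 ± 0.25 at day 4 (SE, adjusted p = 6.64e-05, limma), 3.73 ± 0.25 at day 11 (adjusted p = 1.48e-06) and 3.60 ± 0.25 at day 18 (adjusted p = 6.32e-07), which are folds of 5.37, 13.3 and 12.1. Day 11 was higher than day 4 by 1.31 ± 0.25 (adjusted p = 0.0145). Day 18 did not differ from day 11 past the threshold (log2 difference -0.13, 95% interval -0.67 to 0.41, adjusted p = 0.996). Klrg1 is ENSMUSG00000030114.8, at chr6:122270596-122282882 (minus strand) in GRCm38.

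Natural killer cells also carry KLRG1, and among their markers Eomes alone rose. Of 10 tested natural killer markers, 1 rose on each day, while 0 fell at day 4, 2 at day 11 and 8 at day 18. The natural killer receptor gene Ncr1 went from 234 ± 36.4 normalised counts (SD, n = 3) in untreated marrow to 65.3 ± 46.5 at day 18 (adjusted p = 0.00917). Eomes is a transcription factor of natural killer cells and of CD8 effector and memory T cells. Without Eomes, the summed level of the other 10 natural killer markers in the table was 1366 to 1748 in untreated marrow, 1284 to 2518 at day 4, 710 to 864 at day 11 and 445 to 896 at day 18. With Eomes the sums were 1478 to 1924 in untreated marrow, 1628 to 3124 at day 4, 1536 to 1721 at day 11 and 1413 to 1806 at day 18.

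Cx3cr1, the fractalkine receptor, went the opposite way from Klrg1. Untreated samples had normalised counts of 1888, 1815 and 1803, and day 4 samples 1171, 720 and 1119. Day 11 samples had 1412, 1629 and 1397, and day 18 samples 1321, 1183 and 1015. All 9 treated samples lay below all 3 untreated ones. The log2 change was -0.90 ± 0.15 at day 4 (adjusted p = 0.00393, limma) and -0.65 ± 0.15 at day 18 (adjusted p = 0.0144). At day 11 it was -0.31 ± 0.15, which did not pass (adjusted p = 0.266). Day 11 was not shown to differ from day 4 (0.59 ± 0.15, adjusted p = 0.0731). With the estimated read depth as a covariate the day 4 change was -0.98 and the adjusted p was 0.106. Day 4 and untreated samples did not overlap in estimated depth, so the covariate separated depth from group poorly there. With no intensity trend the adjusted p at day 18 was 0.0546. Of 11 tested monocyte markers, 1 was higher and 1 lower at day 4, 2 were higher at day 11, and 1 was higher and 1 lower at day 18. Ccr2, the chemokine receptor of classical monocytes, was the lower one at day 4, going from 10977 ± 2160 to 7197 ± 1303 (adjusted p = 0.0426), and Nr4a1, an immediate early gene that non-classical monocytes also need, was the higher one. Treml4, a marker of non-classical monocytes, stood at 470 ± 41.5 and 470 ± 23.6 (adjusted p = 0.995). The part of monocytes in the Cx3cr1 change was not tested. Cx3cr1 is ENSMUSG00000052336.7, at chr9:119901616-120069879 (minus strand).

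Cxcr6, the CXCL16 receptor of resident and activated T cells, rose late. Untreated samples showed 101, 151 and 141 normalised counts, and day 4 samples 89, 105 and 153, so both groups overlap. At day 11 they were 304, 387 and 270, and day 18 samples 623, 617 and 596. Both later groups lie above both earlier ones, and each day 18 sample lies above each day 11 sample. The log2 change from untreated marrow was -0.19 ± 0.20 at day 4 (adjusted p = 0.626, limma), 1.29 ± 0.20 at day 11 (adjusted p = 0.00145) and 2.24 ± 0.20 at day 18 (adjusted p = 5.43e-06), the last a fold of 4.71. From day 11 to day 18 the difference was 0.95 ± 0.20, a fold of 1.93, with an adjusted p of 0.107. In that comparison 1 gene of 14883, or 0.00672%, was called, and 0 of the 8 members, of which 2, Cxcr6 and Cx3cr1, had an unadjusted p under 0.05. With sample weights the adjusted p for Cxcr6 was 0.0183, with only these 2 groups in the fit it was 0.0497, and over the other alternatives it ran up to 0.381. Cxcr6 is ENSMUSG00000048521.8, at chr9:123806475-123811760 (plus strand).

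Cd69, an early activation antigen and residency marker, peaked at day 4. In untreated marrow the normalised counts were 295, 309 and 311, and day 4 samples 1089, 1488 and 1736. By day 11 the counts were 454, 327 and 386, and day 18 samples 512, 381 and 395. Day 4 stands apart from every other group, and the later days lie just above untreated marrow with no overlap. The log2 change at day 4 was 2.21 ± 0.16 (adjusted p = 2.02e-06, limma), a fold of 4.62. Day 11 was lower than day 4 by -1.87 ± 0.16 (adjusted p = 3.13e-05) and day 18 by -1.73 ± 0.16 (adjusted p = 2.58e-05). Against untreated marrow the later days had 0.34 ± 0.16 (adjusted p = 0.269) and 0.48 ± 0.16 (adjusted p = 0.084). Immediate early genes, which answer stimulation or tissue handling within minutes to hours, moved with it: 7 of 7 tested were higher at day 4, with a median log2 change of 3.08, then 6 at day 11 and 5 at day 18. Their summed level was 3807 to 7052 in untreated marrow, 43600 to 55886 at day 4, 8732 to 13572 at day 11 and, last, 7578 to 11417. The part of handling in the Cd69 peak was not tested. Cd69 is ENSMUSG00000030156.5, at chr6:129267325-129275436 (minus strand).

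Ccr7, the lymphoid homing receptor, fell from day 11. Before treatment the normalised counts were 290, 443 and 399, and day 4 samples 263, 300 and 324, so these groups overlap. Day 11 samples had 146, 142 and 174, and day 18 samples 215, 155 and 236. All samples of the later days lie below all untreated ones. The log2 change was -0.33 ± 0.18 at day 4 (adjusted p = 0.31, limma), -1.27 ± 0.18 at day 11 (adjusted p = 0.000657) and -0.90 ± 0.18 at day 18 (adjusted p = 0.00555). Day 11 was lower than day 4 by -0.94 ± 0.18 (adjusted p = 0.013). Day 18 was not shown to differ from day 11 (0.37, 95% interval -0.00 to 0.75, adjusted p = 0.724). Ccr7 is ENSMUSG00000037944.8, at chr11:99144196-99155077 (minus strand).

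S1pr1, the egress receptor, was lower on every treated day. The untreated normalised counts were 582, 878 and 769, and day 4 samples 362, 427 and 525. The day 11 counts were 365, 382 and 438, and day 18 samples 366, 316 and 470. No treated sample reached the lowest untreated one, and the 3 treated groups overlap each other. The log2 change was -0.76 ± 0.17 at day 4 (adjusted p = 0.0254, limma), -0.89 ± 0.17 at day 11 (adjusted p = 0.0079) and -0.95 ± 0.17 at day 18 (adjusted p = 0.00354). The day 4 call was lost without untreated replicate 2 or 3 (adjusted p = 0.0899 and 0.0958), without day 4 replicate 1 or 2 (0.0781 and 0.0732), with no intensity trend (0.0777) and with the depth covariate (0.128). S1pr1 is ENSMUSG00000045092.8, at chr3:115710433-115715072 (minus strand).

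Markers of mature B cells, which carry CCR7 and S1PR1, fell in the same samples. Of 11 tested, 5 fell at day 4, 11 at day 11 and 10 at day 18, and 0 rose. Fcer2a, which encodes the IgE receptor CD23, had 879 ± 253 before, 309 ± 32.8 at day 4, 121 ± 28.5 at day 11 and 125 ± 30.6 at day 18. The summed level of the 11 markers was 24062 to 33007 in untreated marrow, 15873 to 25966 at day 4, 11956 to 13221 at day 11 and 12673 to 18925 at day 18. T cell markers went up at the same time, with 4 of 14 higher at day 4, 13 of 14 at day 11 and 13 of 14 at day 18 and 0 lower. Their summed level was 2889 to 4852 in untreated marrow and 12537 to 17686 at day 18. The T cell marker not called at days 11 and 18 was Cd4 (adjusted p = 0.45 and 0.0933, limma). Cd8a went from 367 ± 124 normalised counts in untreated marrow to 2202 ± 302 at day 18 (adjusted p = 2.53e-05). The part of B cells in the Ccr7 and S1pr1 changes was not tested.

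Cd44, the hyaluronan receptor, was not shown to change. Normalised counts were 13739, 11189 and 13364 in untreated marrow, and in day 4 samples 14263, 11413 and 12377. At day 11 Cd44 had 13298, 13807 and 12766, and day 18 samples 14142, 14986 and 11621. All 4 groups overlap. The 95% intervals of the log2 change were -0.25 to 0.23 at day 4, -0.17 to 0.30 at day 11 and -0.15 to 0.32 at day 18, and the smallest adjusted p was 0.697. Cd44 is ENSMUSG00000005087.17, at chr2:102811141-102901665 (minus strand).

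Itga4, the alpha-4 integrin chain, varied more between samples of a group than between groups. Untreated samples had normalised counts of 7583, 6346 and 7673, and day 4 samples 6462, 5268 and 7422. Day 11 samples had 7669, 6244 and 8702, and day 18 samples 8491, 9053 and 4556. Day 18 replicate 3 is the lowest of all 12 samples, next to the highest of them in the same group. The day 18 log2 change was -0.03 (95% interval -0.48 to 0.43, adjusted p = 0.96, limma), and without that replicate it was 0.29 (adjusted p = 0.26). Itga4 is ENSMUSG00000027009.18, at chr2:79255426-79333123 (plus strand). Its exons share 1124 bases with Cerkl on the opposite strand, a gene with at most 55 normalised counts in any sample. The exons of Cx3cr1 share 78 bases with the antisense gene Gm33858, at most 27 normalised counts. The other 6 members share no exon base with another annotated gene.

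Per kilobase of exon, Cd44 was the most abundant member in untreated marrow, at 1884 ± 203 normalised counts per kilobase (SD, n = 3). Itga4 followed at 515 ± 53.1, Cx3cr1 at 407 ± 10.2, S1pr1 at 244 ± 49.2 and Ccr7 at 191 ± 39.8 per kilobase. Cxcr6 stood at 67.8 ± 13.7, Cd69 at 46.9 ± 1.34 and Klrg1 at 11.8 ± 2.48 per kilobase. Of these neighbours only S1pr1 and Ccr7 had overlapping samples. By day 18 the lower part of this order had turned over. Cxcr6 had 317 ± 7.34 normalised counts per kilobase and stood above Cx3cr1 at 260 ± 34.0, with no overlap of samples. Klrg1, the lowest before, had 151 ± 33.3 per kilobase and overlapped with S1pr1 at 126 ± 25.8, while Ccr7 at 102 ± 21.3 and Cd69 at 66.0 ± 11.1 were the lowest and overlapped with each other.

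The transcripts of the CD3 chains, which T cells carry at all stages, give a scale for the rise of T cell RNA in these samples. Cd3e had normalised counts of 108, 248 and 260 in untreated marrow, 470, 236 and 448 at day 4, 827, 774 and 856 at day 11, and 877, 1055 and 1226 at day 18. Klrg1 rose by more than the mean of Cd3d, Cd3e and Cd3g: its log2 change beyond theirs was 1.64 ± 0.35 at day 4 (adjusted p = 0.000543, limma), 1.87 ± 0.35 at day 11 (adjusted p = 2.39e-07) and 1.43 ± 0.35 at day 18 (adjusted p = 5.97e-05). The p-values on this scale are too small, because the fit took the spread as known although it rests on 12 samples. Klrg1 samples ran from -4.36 to -3.22 on this scale in untreated marrow and from -2.33 to -2.01 at day 4. They ran from -2.03 to -1.9 at day 11 and from -2.5 to -2.32 at day 18. Genes higher on this scale were 0.464%, 0.195% and 0.255% of the 14880 tested at the 3 days. Cd69 was the only other member higher on it, at day 4 (1.42 ± 0.33, adjusted p = 0.00146). For Cxcr6 the value at day 4 was -0.98 ± 0.33 (adjusted p = 0.0223), beside a median of -0.78 over all genes, and this call was lost with the depth covariate (adjusted p = 0.961), with only the groups compared (0.147) and without untreated replicate 1 (0.0801) or day 4 replicate 1 (0.167) or 3 (0.0948). It was not shown to differ from the CD3 chains at day 11 (-0.58 ± 0.33, adjusted p = 0.0843) or day 18 (0.06, 95% interval -0.59 to 0.72, adjusted p = 0.856). In all, 8, 7 and 7 members were called relative to the CD3 chains, where 46.1%, 97.8% and 98.4% of all genes were. The lower ones made up 45.7%, 97.6% and 98.1% of all genes. The calls of members as lower, which are those of Cd44, Ccr7, S1pr1, Itga4 and Cx3cr1 on all 3 days, Cxcr6 at day 4 and Cd69 at days 11 and 18, are therefore no result about these genes. At day 4 the count of 8 fell to 1 (Cd69) with the depth covariate, where Klrg1 had an adjusted p of 0.103, and to 3 with only the compared groups in the fit, where Cd69 had 0.0603. It was 5 without untreated replicate 1, whose Cd3e count is the lowest, and 4 without day 4 replicate 1 or 3. With sample weights Cxcr6 passed at day 11 (-0.52) and day 18 (0.24), and it passed at day 11 without day 4 replicate 2 (adjusted p = 0.0466).

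**Figure D3:**
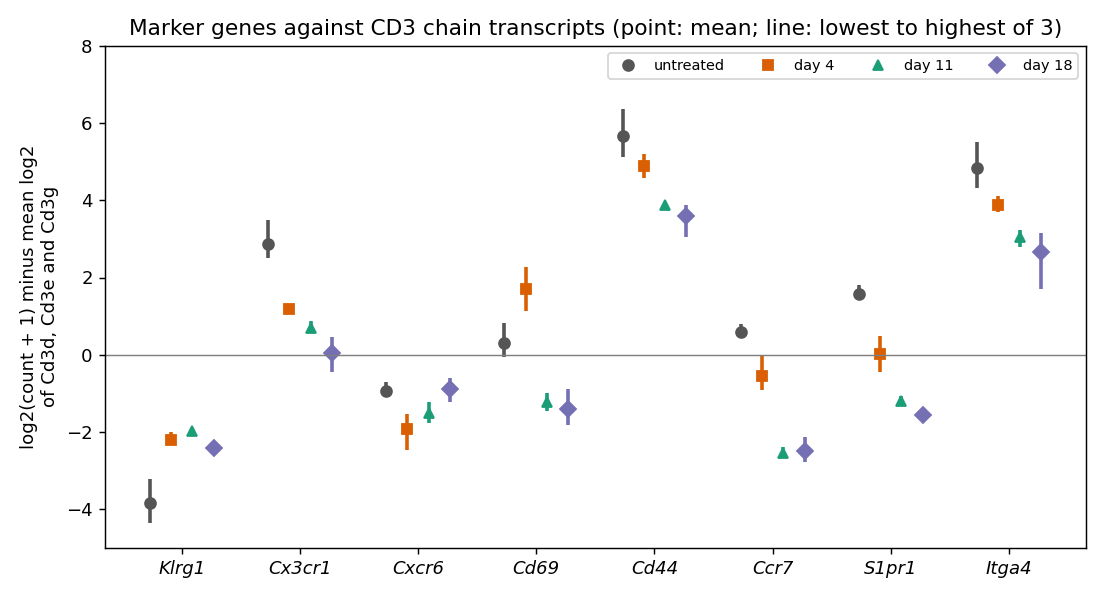
Log2(count + 1) of each gene minus the mean log2(count + 1) of the 3 CD3 chain genes in the same sample. Points are means of 3 samples and lines run from the lowest to the highest sample. Klrg1 goes from a mean of -3.84 in untreated marrow to -1.97 at day 11, and Cxcr6 returns from -1.92 at day 4 to -0.88 at day 18. Ccr7, S1pr1, Cx3cr1, Cd44 and Itga4 go down, as nearly all genes do on this scale at days 11 and 18.

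Genes for ligands of the members were called about as often as all genes tested, of which 4.64%, 5.32% and 9.2% passed at the 3 days. Of 19 tested genes for ligands and ligand handling, 1 was higher at day 4, 0 at day 11, and 1 was higher and 1 lower at day 18. The higher ones were Spp1, which encodes the CD44 ligand osteopontin, at day 4 (adjusted p = 0.0101), and Lgals9, which encodes galectin-9, at day 18 (adjusted p = 0.0215). Cxcl16, the ligand of CXCR6, had 24.3 ± 6.81 normalised counts in untreated and 37.3 ± 11.2 in day 18 marrow (adjusted p = 0.29). Cx3cl1, the ligand of CX3CR1, was low, at 9.67 ± 5.86 and 4 ± 3.61 (adjusted p = 0.281). Cdh1, the E-cadherin ligand of KLRG1, had 425 ± 24.0 and 508 ± 43.2 (adjusted p = 0.17). Vcam1, the vascular ligand of alpha-4 integrins, stood at 1717 ± 185 and 1657 ± 449 (adjusted p = 0.813). Fn1, which encodes fibronectin and is also made by monocytes, fell from 20170 ± 1985 to 13185 ± 2246 at day 18 (log2 change -0.62 ± 0.16, adjusted p = 0.0265). Of the CCR7 ligands, Ccl19 had at most 2.00 ± 2.65 normalised counts in a group and was not tested, and Ccl21a was not analysed here. Spns2, a transporter that releases sphingosine 1-phosphate, had 359 ± 26.2 in untreated marrow against 317 ± 36.1 at day 18 (adjusted p = 0.364).

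The integrin chains that pair with ITGA4 rose, and Itga4 itself did not pass the test. Itgb7 rose from 3944 ± 67.6 normalised counts to 5639 ± 531 (day 11) and 6222 ± 272 (day 18), log2 changes of 0.51 ± 0.09 and 0.66 ± 0.09 (adjusted p = 0.00492 and 0.000477, limma). Itgb1 rose from 4829 ± 165 to 6000 ± 266 at day 11 (0.31 ± 0.07, adjusted p = 0.0169) and stood at 5464 ± 177 at day 18 (adjusted p = 0.131). Both chains also pair with other alpha chains. Klf2, a transcription factor known to drive S1pr1 in T cells, rose at day 4 from 1804 ± 186 to 4238 ± 548 (1.23 ± 0.13, adjusted p = 6.64e-05), when S1pr1 was lower. It was back at 1832 ± 233 at day 11 (adjusted p = 0.953).

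Other homing receptors and adhesion genes went in both directions. Of 20 tested, 1 rose and 2 fell at day 4, then 6 rose and 1 fell at day 11, and 5 rose and 1 fell at day 18. Cxcr3, the receptor for interferon-induced chemokines, rose from 184 ± 25.7 normalised counts to 396 ± 68.7 by day 18 (adjusted p = 0.00254), and the adhesion gene Cd2 from 555 ± 97.3 to 1012 ± 91.9 (adjusted p = 0.000728). The gene lower on all 3 days was Cxcr5, the follicle-homing receptor of B cells and follicular T cells, which went from 375 ± 101 to 196 ± 50.9 by day 18 (adjusted p = 0.0274). The median log2 change of the list at day 18 was 0.10.

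Of 17 residency genes, 5 rose on day 4 and 5 on day 11, with 0 falling. On day 18, 4 rose and 1 fell, Dusp6, which had been higher at day 4 (adjusted p = 0.0424, limma). The genes higher at day 4 also include Nr4a1, an immediate early gene, and the part of handling in them was not tested. Rgs1, a brake on chemokine receptor signalling, was highest at day 4, as Cd69 was, at 65.0 ± 25.2 normalised counts before, 1951 ± 159 at day 4 and 358 ± 46.9 at day 18. Prdm1, a transcription factor of effector and resident T cells and of plasma cells, was highest at day 18, as Cxcr6 was, at 86.3 ± 14.2 before, 105 ± 33.1 at day 4 (adjusted p = 0.586), 210 ± 49.96 at day 11 and 293 ± 37.1 at day 18 (adjusted p = 0.000207). Runx3, which CD8 T cells require, rose to 1639 ± 6.08 at day 18 from 976 ± 174 (adjusted p = 0.000641). Bhlhe40 rose on all 3 days, from 422 ± 32.2 to 1047 ± 173 (day 4) and 739 ± 90.4 (day 18). Itgae and Zfp683, well-known residency genes, did not pass on any day. Itgae, which encodes CD103, had 70.7 ± 2.52 in untreated against 58.7 ± 3.22 in day 18 marrow (adjusted p = 0.569), and Zfp683, which encodes Hobit, at 32.0 ± 7 and 19.7 ± 14.2 (adjusted p = 0.203).

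Of 16 tested genes of effector and memory state, 2 rose at day 4, none fell, and on both later days 7 rose and 1 fell. Gzmk, a granzyme gene of memory CD8 T cells, rose from 6.00 ± 2.65 normalised counts to 1004 ± 175 at day 18 (7.22 ± 0.26, adjusted p = 3.23e-09), and Eomes from 143 ± 32.0 to 969 ± 59.0 (2.77 ± 0.21, adjusted p = 1.53e-06). Fasl, a death ligand of killer cells, rose from 43.0 ± 3.00 to 254 ± 36.2 and did not pass at day 4 (56.3 ± 22.1, adjusted p = 0.548), as Cxcr6 did not. The gene lower at day 18 was Gzma, a granzyme gene that natural killer cells express strongly (adjusted p = 0.0115), and the one lower at day 11 was the interleukin receptor gene Il7r (adjusted p = 0.0285). Genes of naive and central memory cells had 1 of 13 members higher on each day, with 4 lower at day 11 and 2 at day 18. Satb1, a chromatin organiser, fell from 1923 ± 90.1 to 1388 ± 107 at day 18 (adjusted p = 0.0061), and Bach2, a repressor of effector genes that B cells also express, from 2145 ± 129 to 1224 ± 130 at day 11 (adjusted p = 0.0235). The gene that rose at day 4 was Klf2, and on the later days it was Cd28, the costimulatory receptor gene of T cells, from 284 ± 51.2 to 838 ± 57.7 at day 18 (adjusted p = 0.000179).

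Among the members, the pair with the most similar courses was Cd44 and Itga4, whose centred log2 values differed by 0.22 (root mean square over the 12 samples), followed by Ccr7 and S1pr1 with 0.30. Klrg1 and Cxcr6 differed by 1.10 and Klrg1 and Ccr7, the least alike pair, by 1.98. Across all genes tested, those most like Klrg1 were Chst2 at a distance of 0.39, Eomes at 0.50 and Tnfsf4 at 0.51, where Klrg1 itself varied by 1.53 about its mean. Those most like Cxcr6 were Art2b at 0.26, Apol7e at 0.35 and Baiap3 at 0.37, where Cxcr6 varied by 1.02. Art2b, an ADP-ribosyltransferase of T cells, had group means of 91.3, 94.7, 242 and 385 normalised counts in time order. Nearest to Cd69, which varied by 0.88, were Plk2 at 0.19, Trib1 at 0.24 and Jund at 0.29, and Trib1 had group means of 875, 4357, 1358 and 1259. Fcrl1, a gene expressed in B cells, was nearest to Ccr7 at 0.15, where Ccr7 varied by 0.53. Srpk3 followed at 0.19 and Cbx7 at 0.21. Cbx7 was nearest to S1pr1 at 0.18, where S1pr1 varied by 0.44, followed by Cd209a, a dendritic cell lectin, and Gm11346, both at 0.19. Il6st, Ptafr and Hrh2 were nearest to Cx3cr1, at 0.16 to 0.17, where Cx3cr1 varied by 0.39. For Cd44 these were Man1c1, Tbc1d2b and Diaph1 at 0.05, and for Itga4 they were Fyco1, Cog5 and Syne3 at 0.09 to 0.11. These distances are descriptions, and genes in the same libraries share their depth and cell mixture.

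**Figure D4:**
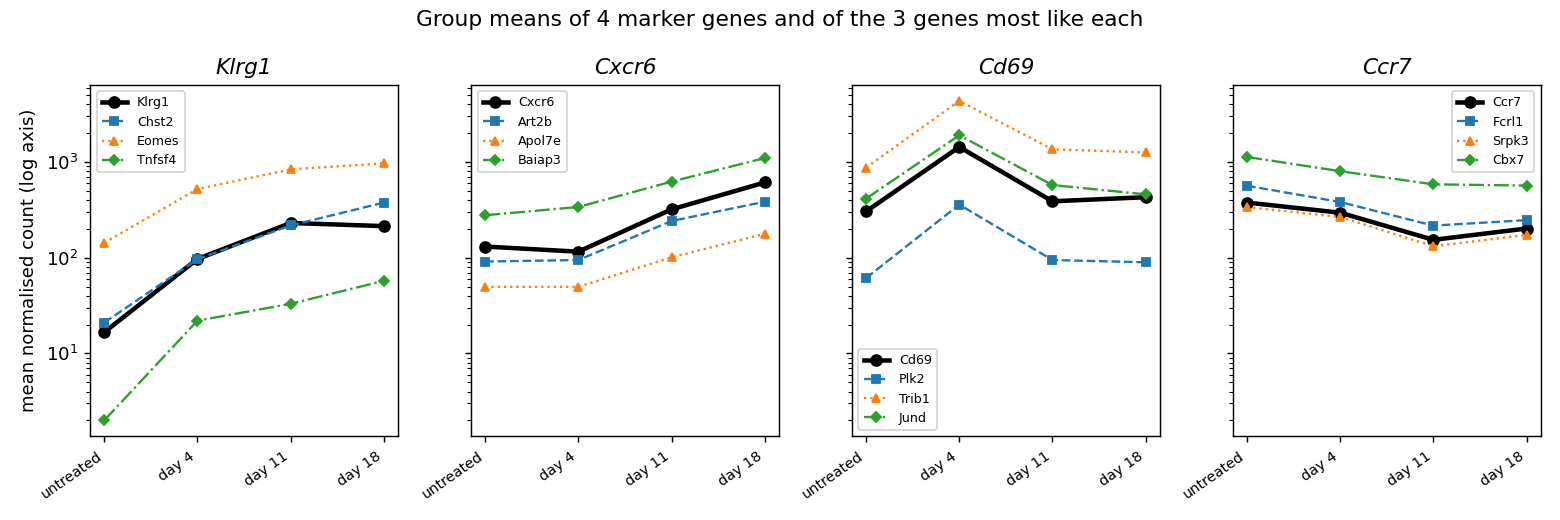
Mean normalised count, on a log axis, of Klrg1, Cxcr6, Cd69 and Ccr7 (black) and of the 3 genes most like each over the 12 samples. Cd69 and its nearest genes peak at day 4, and Cxcr6 and Art2b stay near their untreated level at day 4 and are higher at days 11 and 18.

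Between treated days, 2 members were higher and 2 lower at day 11 than at day 4, where 1.68% of all genes were called (0.726% higher and 0.954% lower). From day 4 to day 18, 2 rose and 1 fell, against 5.48% (2.77% higher and 2.7% lower). Samples did not overlap for 5 members in the first of these comparisons and 4 in the second, beside 17% and 19.6% of all genes. The higher members were Klrg1 and Cxcr6 in both comparisons, and Cd69 was lower in both. The rise of Klrg1 from day 4 to day 11 lost its call without any one of the 3 day 11 samples (adjusted p = 0.0505 to 0.0693) and with no intensity trend (0.0585). Its rise from day 4 to day 18 lost its call with only the groups compared (adjusted p = 0.0529) and without day 18 replicate 2 (0.0517). Ccr7, lower at day 11 than at day 4, lost its call with no intensity trend (adjusted p = 0.0585), with the depth covariate (0.0981) and without day 4 replicate 3 or day 11 replicate 1 or 2 (adjusted p = 0.0571 to 0.0697). The day 4 libraries had an estimated 16 to 17.8 M reads, against 21.6 to 25.2 M in untreated marrow and 16.8 to 24.3 M at the later days. Day 4 and untreated depths do not overlap. Calls lost with the depth covariate in that comparison therefore cannot tell depth from group.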

How the data were processed

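The authors deposited 1 table of normalised counts as whole numbers. As deposited by the authors, each value is a score that had been scaled and rounded in a way the file does not state, not a raw count. Per the submitters' processing notes, STAR 2.3.0, Subread, featureCounts 1.4.6, limma and GRCm38 were used, without their roles. Per the labels, libraries came from a stranded mRNA kit, and the strand setting of counting is not given in the sources used here. Positions and exon lengths are those of GENCODE M21, where all 23134 identifiers were matched.

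A gene was kept if 3 samples or more had 10 or more (14883 of 23134 passed). Log2(count + 1) was modelled in limma (version 3.58.1, R 4.3.3) with 1 mean per group, all 12 samples and an intensity trend. Two-sided p-values were corrected over all genes tested (Benjamini-Hochberg, threshold 0.05). The fit was tested on simulated data with known changes. A second fit subtracted the mean log2 value of Cd3d, Cd3e and Cd3g from each gene. That subtraction gives all genes a shared error. In this second fit limma took the spread as known, so its p-values are too small for 12 samples. Read depth was estimated from the spacing of low whole numbers, on the assumption of 1 scaling factor per sample.

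Members and gene lists were chosen with earlier results of these data known. Named genes are the members, their ligands and partners, up to 4 genes per list with the smallest adjusted p in the comparison described, defining markers, and the 3 genes most like each member. Genes that a count of 5 or fewer left to name were added after their values were seen, as was Rgs1 beside Cd69 and Fasl and Prdm1 beside Cxcr6. Results for some listed genes are not reported here.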

Additional observations from a re-analysis of the deposited data

Results flagged for a closer look

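Changes from untreated marrow that differed between days, by the limma test of the difference itself, were found for 4 members. From day 4 to day 11, Klrg1 differed by 1.31, Cxcr6 by 1.48, Cd69 by -1.87 and Ccr7 by -0.94 on the log2 scale. From day 4 to day 18, Klrg1 differed by 1.18, Cxcr6 by 2.43 and Cd69 by -1.73. The settings under which the Klrg1 and Ccr7 calls were lost are given with the comparisons between treated days. Since all days are compared with the same untreated samples, these are the differences between the days themselves, in which antibody exposure and time since injection cannot be told apart. Groups of 3 samples are too small for a test of single outlying samples.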

How the results depend on the processing

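Across 1608 recomputed values of the members, 1511 kept their direction and side of the threshold, 51 lost a call, 13 gained one and 33 changed sign. Of the 42 called comparisons, 0 changed sign. They include the 8, 7 and 7 calls relative to the CD3 chains, of which the lower ones are no result about these genes.

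Counts of called members moved in these settings. Day 4 against untreated gave 2 with the depth covariate. Day 11 against day 4 gave 2 with no intensity trend. Day 18 against day 11 gave 1 with sample weights and 1 with only the groups compared. Relative to the CD3 chains, day 4 gave 1 with the depth covariate and 3 with only the groups compared. Leaving out 1 sample gave 3 to 4, 4 to 4 and 5 to 6 against untreated at the 3 days, 2 to 5 and 2 to 4 against day 4, and 4 to 8 at day 4 relative to the CD3 chains. For any difference among the 4 time points it gave 5 to 6.

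All changes of sign were in comparisons that were not called, and the cause was not tested. Itga4 went to -0.011 at day 11 with quantile normalisation, and with sample weights to 0.172 at day 18 and 0.108 against day 11. With the depth covariate, Cd44 at day 4 went to 0.044 and Itga4 to 0.296, and Itga4 at day 18 to 0.103. In the same fit S1pr1 went to 0.012 and Itga4 to -0.051 from day 4 to day 11, and Itga4 to -0.193 from day 4 to day 18. Leaving out 1 sample in turn gave ranges that reach or cross 0. For Cd44 they were -0.101 to 0.064 at day 4, -0.029 to 0.119 at day 11, -0.005 to 0.196 at day 18, 0.000 to 0.16 from day 4 to day 11 and -0.051 to 0.132 from day 11 to day 18. For Itga4 they were -0.052 to 0.187 at day 11, -0.206 to 0.289 at day 18, -0.023 to 0.472 from day 4 to day 18 and -0.264 to 0.231 from day 11. For S1pr1 they were -0.265 to 0.002 from day 4 to day 11 and -0.211 to 0.075 from day 11 to day 18, for Klrg1 -0.289 to 0.030 from day 11 to day 18, and for Cxcr6 relative to the CD3 chains at day 18 -0.071 to 0.238.

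No paired analysis was possible because the labels carry no replicate numbers that groups share. Leaving out the day 4 samples, an alternative chosen after seeing the data, moved no count. Depth in reads is an estimate.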
